A study of Mus musculus with 8 samples.

Results

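The synaptic vesicle release machinery was followed here through 75 genes of the 21959 in a mouse brain RNA-seq count table. The members were taken by name: the synaptotagmin, Doc2, complexin, syntaxin, Vamp, Unc13, Rims and Stxbp families, together with Snap23, Snap25, Snap29, Nsf, the synapsins Syn1 to Syn3, Sv2a to Sv2c, Rab3a to Rab3c and Syp. The rule itself works on names alone. Of the 75 members, 70 had enough reads to be tested. None of the 70 differed between the isoliensinine and the model group at a false discovery rate of 0.05 in edgeR's quasi-likelihood test. The members nearest to that threshold were Syt4, lower in the isoliensinine group, and Syt2 and Cplx2, both higher in it.

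A neuron releases transmitter when a calcium rise makes docked vesicles fuse with the presynaptic membrane. Fusion is driven by SNARE proteins: Vamp1 or Vamp2 on the vesicle zips together with a syntaxin and Snap25 on the plasma membrane. Unc13 and Rims proteins prepare the vesicle at the active zone, complexins clamp and then assist the partly zipped complex, fast synaptotagmins sense calcium, and the ATPase Nsf takes the spent complex apart. In the hypothalamus the same proteins serve fast synapses, while part of the family also serves the large dense-core vesicles that carry neuropeptides.

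The study asked how isoliensinine (IsoL), an alkaloid of lotus seed embryo, acts on sleep in mice. It compared 4 libraries of a model group, labelled as treated with PCPA (4-chlorophenylalanine, an inhibitor of serotonin synthesis used to produce insomnia), with 4 labelled as treated with isoliensinine. Wild-type ICR mice, described as female, received their agents for 7 days, and pentobarbital was injected 40 minutes after the last dose. The labels name 3 IsoL doses, 12.5, 25 and 50 mg/kg, without saying which was sequenced, and do not say whether the IsoL mice also received PCPA, whether animals were pooled or what age they were. A blank group and an alprazolam group belonged to the study and were not analysed here.

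The libraries held 14262836 to 21620466 counts, and the members took 1.6 to 1.7% of them. Nothing in the labels says that replicates are separate mice, so each p-value rests on library-to-library spread, part of which may be technical. The tissue label reads brain, while the design text describes a dissected hypothalamus. All 16 hypothalamic marker genes passed the filter on low counts, as did all 7 thalamic and all 6 striatal markers. Passing it does not tell these regions apart. Against the stated sex, 4 Y-linked genes summed to 301 to 354 CPM (counts scaled to library size) in all 8 libraries. The library Model 2 stood apart. Its squared differences from each of the other 7 libraries averaged 10.9 to 15.2 times the variance expected from counting. For all other pairs this was 2.52 to 9.75. Model 2 was the highest or lowest of the 8 libraries for 34 of the 70 tested members (48.6%) and for 46.1% of all tested genes. For the other libraries the number was 6 to 27 members. Members that edgeR called only without Model 2 are therefore given with and without it, and other members only in part.

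Per base of gene model, the most abundant members included most of the parts that act at fusion itself. On the FPKM scale (counts per kilobase, scaled to library size) Cplx1 was first with a median of 319 over the 8 libraries, followed by Snap25 at 266, Syt11 at 204 and Vamp2 at 199. The lowest and highest library were 289 to 346 for Cplx1, 233 to 321 for Snap25, 201 to 223 for Syt11 and 189 to 219 for Vamp2, so Snap25 overlapped Cplx1 above it and lay clear of Syt11 below it, while Syt11 and Vamp2 overlapped. In all, 10 members had a median above 100 FPKM and 10 a median under 1 FPKM. The vesicle proteins Sv2a (168 FPKM), Rab3a (165) and Syp (90.0) and the fast calcium sensor Syt1 (148) lay near the top as well.

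**Figure D1:**
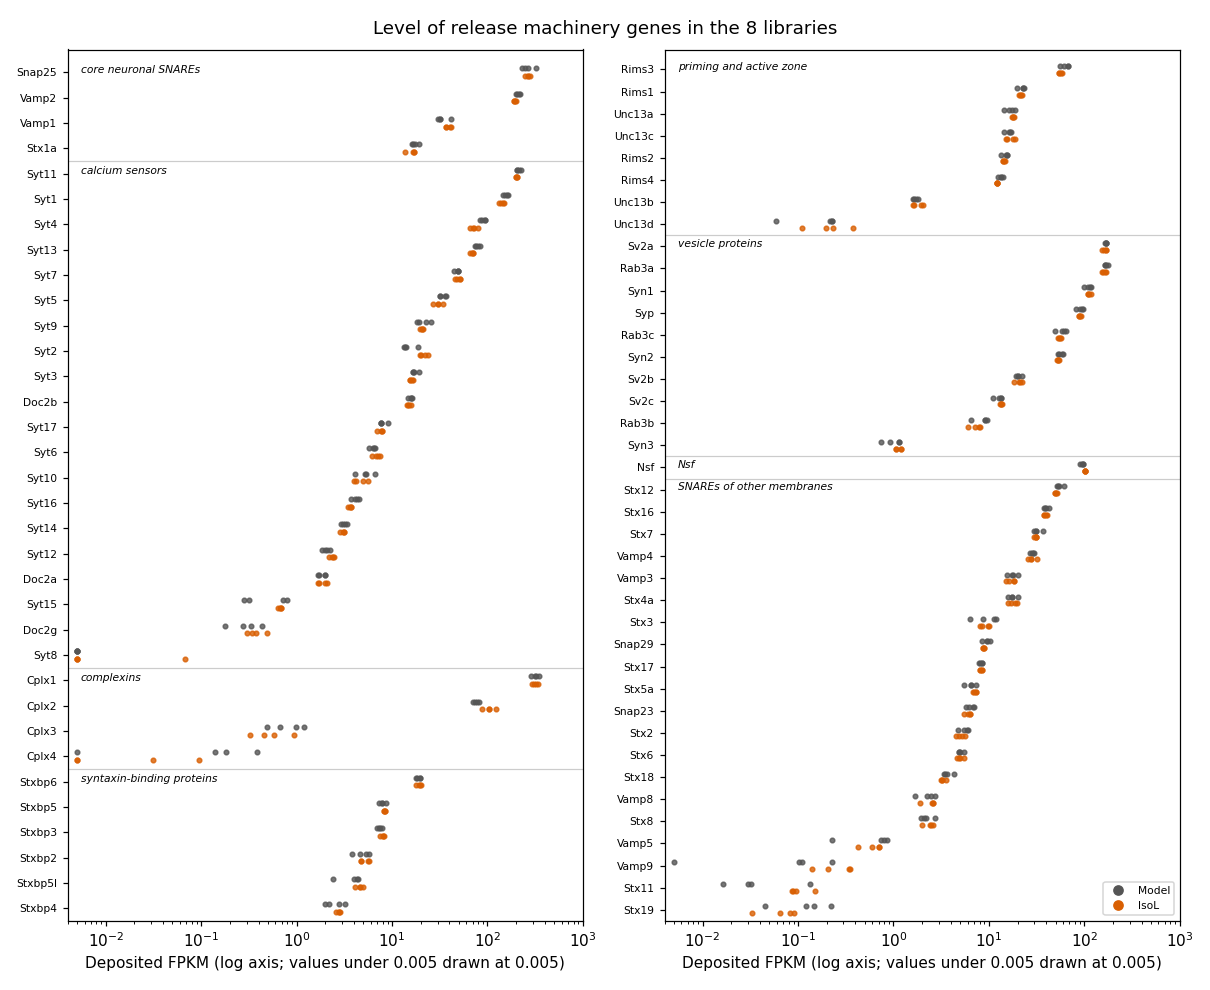
FPKM of each member described here, in each library, on a log axis, with members grouped by role and one point per library (Model and IsoL in separate colours). Cplx1, Snap25, Syt11 and Vamp2 have the highest medians, and for nearly every member the 2 groups lie on top of each other relative to the spread between members.

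Not tested, for too few reads, were 5 members. Per library, Cplx4 had 0 to 12 counts, Stx11 1 to 10, Stx19 2 to 9, Vamp9 0 to 9 and Syt8 0 to 2. A count of 0 in a library allows a level of up to 0.138 to 0.210 CPM, depending on its depth, and this limit covers counting error only.

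Across the 70 tested members the differences between IsoL and Model were small. No member passed an adjusted p of 0.05 in edgeR, where 0.275% of the 14536 tested genes did, 0.117% as higher and 0.158% as lower. At an adjusted p of 0.1 there were 3 members (4.29%), Syt4, Syt2 and Cplx2, against 0.949% of all tested genes. Of these 2 were higher (0.454% of all tested genes) and 1 lower (0.495%). Without adjustment 15 members (21.4%), 5 higher and 10 lower in IsoL, had a p under 0.05, against 13.2% of all tested genes, 6.44% higher and 6.78% lower. Groups did not overlap for 8 members (11.4%), 3 higher and 5 lower, against 8.48% of all tested genes, 4.05% higher and 4.42% lower. The call depends on the tool: DESeq2 called 4 members, Syt4, Syt13, Syt2 and Cplx2, against 2.14% of all genes, and limma voom called Syt4, Syt13 and Syt2, against 1.2%. Without Model 2, edgeR called Syt2, Vamp1, Rims3 and Syt13, against 0.998% of all genes.

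The sizes bound what could have been missed. The median log2 fold change of the tested members was -0.02, and over all tested genes it was -0.0015. The median size of the change, without its sign, was 0.09 in both. For 48 members (68.6%) the 95% interval lay wholly within 0.32 of 0 on the log2 scale, which held for 55.5% of all tested genes. Estimates passed 1.1-fold for 19 members and 0.32 on the log2 scale for 5, which were Syt2, Cplx2 and the low-count genes Cplx3, Syt15 and Unc13d. In bulk tissue, fewer cells of a type and less RNA per cell cannot be told apart, and this applies to every value that follows.

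**Figure D2:**
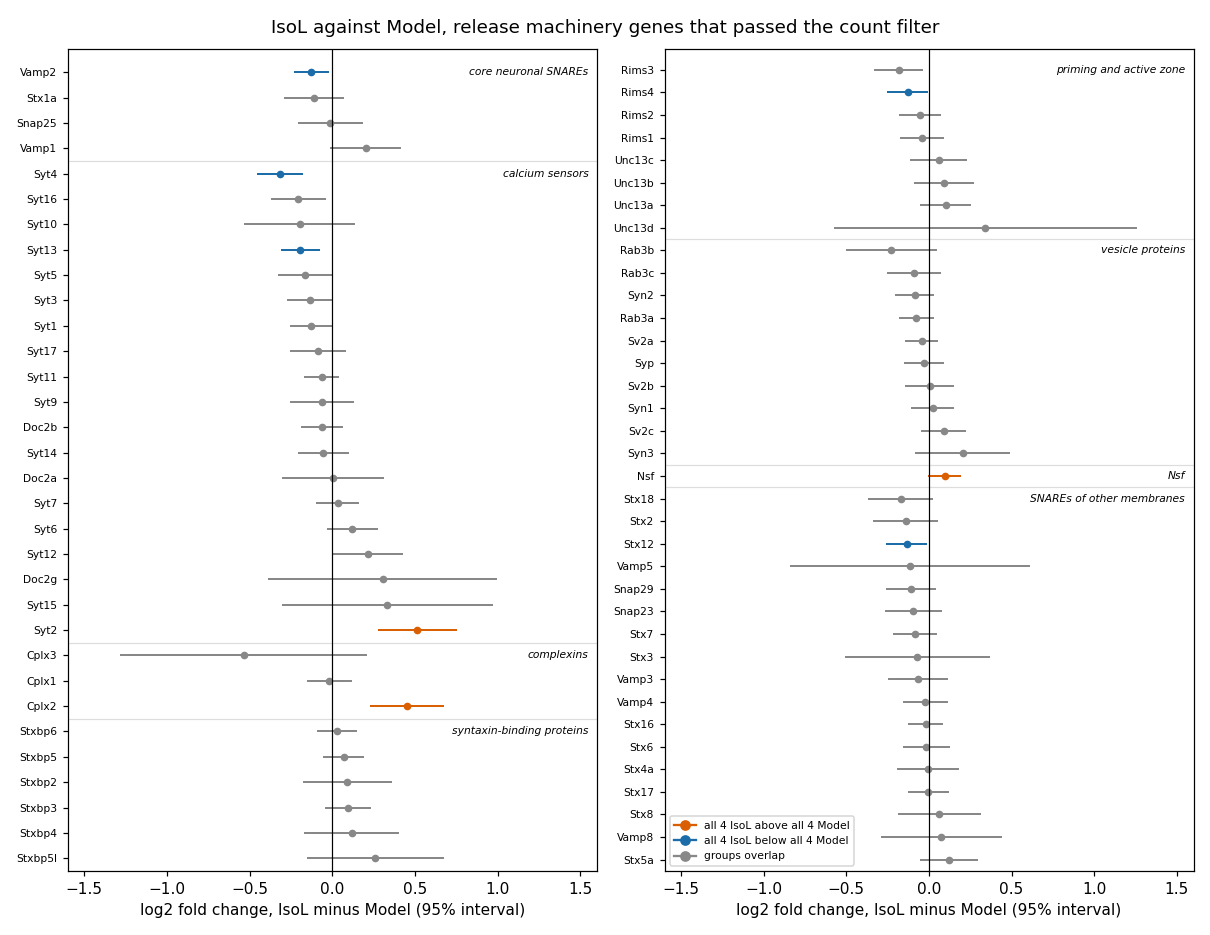
Log2 fold change (IsoL minus Model) of the tested members described here, with its 95% interval from edgeR, grouped by role. Coloured points mark the 8 members whose groups do not overlap, 3 higher and 5 lower in IsoL, and most other intervals span 0.

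The synaptotagmins include the calcium sensors of exocytosis, and both directions occurred among them. The word sensors is used here for the families by name, and some members, such as Syt11 and Syt13, do not bind calcium. Of 16 tested synaptotagmins, 5 lay above and 11 below the model group, and with Doc2a, Doc2b and Doc2g the sensors had a median log2 fold change of -0.063. Of all tested genes, 50.5% lay below. Unadjusted p was under 0.05 for 2 higher and 6 lower of the 19 sensors, and for 6.44% higher and 6.78% lower of all tested genes. The lower ones were Syt1, Syt3, Syt4, Syt5, Syt13 and Syt16, and the higher ones Syt2 and Syt12.

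Syt4 (ENSMUSG00000024261, chromosome 18, 31570861 to 31580459) encodes an atypical synaptotagmin found on dense-core vesicles. Its level was 373, 367, 319 and 340.1 CPM in Model 1 to 4 and 280.2, 260.5, 275 and 308 CPM in IsoL 1 to 4. Every IsoL library lay below every Model library. The log2 fold change was -0.31 (SE 0.061, 95% interval -0.45 to -0.18), with an adjusted p of 0.0536 in edgeR, 0.000662 in DESeq2 and 0.0324 in limma voom. Without Model 2 the log2 fold change was -0.29, with an edgeR adjusted p of 0.0610. With each library left out in turn, the edgeR adjusted p ran from 0.0494 without Model 3 to 0.164 without Model 4.

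Syt13 (ENSMUSG00000027220, chromosome 2, 92745443 to 92786403), an atypical synaptotagmin that does not bind calcium, lay in the same direction. Its level was 320.5, 281, 277 and 302 CPM in Model 1 to 4 and 259, 265, 262 and 248 CPM in IsoL 1 to 4. The groups did not overlap, and the IsoL libraries spread less than the Model libraries. For Syt13 the log2 fold change was -0.19 (SE 0.052), with an adjusted p of 0.133 in edgeR, 0.0284 in DESeq2, 0.0473 in limma voom and 0.0397 in edgeR without Model 2.

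Beside these lower values, genes that mark the hypothalamus also lay lower in IsoL. The 16 hypothalamic markers summed to 257 to 315 CPM in the Model libraries and 145 to 239 CPM in the IsoL libraries, and 13 of the 16 lay below Model. One of them, Pmch, the melanin-concentrating hormone gene, passed the edgeR threshold as lower (34.7 ± 5.19 CPM (Model) and 18.7 ± 3.73 CPM (IsoL), adjusted p 0.0471). The neuronal marker list summed to 2928 to 3379 CPM in Model, highest in Model 2, and 3019 to 3143 CPM in IsoL. Within it, Elavl4, Stmn2 and Slc17a6 had log2 fold changes of -0.16, -0.13 and -0.17, and Nefm had 0.28, each with an unadjusted p under 0.05 and none called by edgeR. The part of these lists in the values of Syt4 and Syt13 was not tested.

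Syt2 (ENSMUSG00000026452, chromosome 1, 134574415 to 134690331), a fast calcium sensor of synchronous release that is prominent in the hindbrain, was higher in IsoL. Its level was 105, 142, 107 and 106 CPM in Model 1 to 4 and 184, 152, 153 and 168 CPM in IsoL 1 to 4. Model 2 lay far above the other 3 Model libraries, close to the lowest IsoL library, and the groups still did not overlap. The log2 fold change was 0.51 (SE 0.10, 95% interval 0.28 to 0.75), or 1.43-fold, with an adjusted p of 0.0864 in edgeR, 0.000132 in DESeq2 and 0.00485 in limma voom. Without Model 2 it was 0.63, with an edgeR adjusted p of 0.00122, and the highest adjusted p with another library left out was 0.212, without Model 4.

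Vamp1, the vesicle SNARE that accompanies Syt2 in many brainstem and spinal neurons, showed the same pattern over libraries. Its level was 317, 424, 320.4 and 321 CPM in Model 1 to 4 and 429, 379, 373 and 409.7 CPM in IsoL 1 to 4. Only Model 2 overlapped the IsoL libraries. The log2 fold change was 0.20 (95% interval -0.006 to 0.41) with an edgeR adjusted p of 0.390, and without Model 2 it was 0.32 with an edgeR adjusted p of 0.00634. Both genes overlap a neighbour on the opposite strand in the deposited coordinates, Ppp1r12b for Syt2 and Tapbpl and Cd27 for Vamp1. Without stated strand-specific counting, the reads of such neighbours cannot be told apart. In all, 19 members overlap another gene, among them Syn1, Syn2, Unc13a and Snap29, and this limit applies to them too.

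Markers of the midbrain and hindbrain were also unequal among the IsoL libraries. Their 13 genes summed to 69.0, 35.1, 34.1 and 73.4 CPM in IsoL 1 to 4, highest in IsoL 1 and 4, the libraries in which Syt2 and Vamp1 were also highest. In Model 1 to 4 the sum was 25.7, 32.7, 44.9 and 40.9 CPM, and Model 2, the highest Model library for Syt2 and Vamp1, was not the highest for this list. Dmbx1 was at 0.0956 ± 0.149 CPM (Model) and 1.48 ± 0.703 CPM (IsoL) and Tfap2d at 0.419 ± 0.0876 CPM (Model) and 1.80 ± 0.755 CPM (IsoL), and since both were near 0 in Model they entered the test through the IsoL libraries, so no call is read from them. Gata3 was at 2.95 ± 0.774 CPM (Model) and 5.99 ± 1.38 CPM (IsoL) and Tal1 at 6.67 ± 1.56 CPM (Model) and 11.3 ± 2.83 CPM (IsoL), while En1 was at 7.27 ± 1.84 CPM (Model) and 5.46 ± 0.827 CPM (IsoL). Hoxb3, a defining hindbrain marker, was at 0 in every library. The part of this list in the values of Syt2 and Vamp1 was not tested.

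The other sensors all had a higher edgeR adjusted p than Syt2, Syt4 and Syt13. Some of their estimates were larger in size than the -0.19 of Syt13, among them -0.20 for Syt16 and 0.22 for Syt12. Syt1, the main fast sensor of forebrain synapses, was at 1386, 1195, 1313 and 1293 CPM in Model 1 to 4 and 1229, 1260.3, 1158 and 1099 CPM in IsoL 1 to 4. The groups overlapped, and the log2 fold change was -0.13 (SE 0.057) with an edgeR adjusted p of 0.350. Syt5 was at 81.2 ± 6.99 CPM (Model) and 72.4 ± 6.34 CPM (IsoL), Syt16 at 38.2 ± 3.73 CPM (Model) and 33.2 ± 1.29 CPM (IsoL), Syt3 at 54.2 ± 3.66 CPM (Model) and 49.4 ± 1.89 CPM (IsoL) and Syt12 at 11.2 ± 0.90 CPM (Model) and 13.1 ± 0.721 CPM (IsoL) (mean ± SD, n = 4 each). Syt7, the slow, high-affinity sensor of asynchronous release, was at 362 ± 18.4 CPM (Model) and 370.4 ± 27.3 CPM (IsoL), with a log2 fold change of 0.034. Syt11, a synaptotagmin that does not bind calcium, was at 1102 ± 59.9 CPM (Model) and 1054 ± 8.0 CPM (IsoL), and the Doc2 genes had log2 fold changes of -0.062 for Doc2b, 0.0051 for Doc2a and 0.30 for Doc2g.

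Complexins bind the assembled SNARE bundle. Cplx2 lay higher in IsoL, while the estimate for Cplx1 was near 0. Cplx2 (ENSMUSG00000025867, chromosome 13, 54519162 to 54531730) was at 375, 342, 399 and 387 CPM in Model 1 to 4 and 616, 509.7, 427 and 505 CPM in IsoL 1 to 4. All IsoL libraries lay above all Model libraries, with the largest gap for IsoL 1 and the smallest for IsoL 3. The log2 fold change was 0.45 (SE 0.10, 95% interval 0.24 to 0.67), or 1.37-fold, with an adjusted p of 0.0979 in edgeR, 0.000365 in DESeq2 and 0.0531 in limma voom. With each library left out in turn, the edgeR adjusted p ran from 0.0304 without IsoL 3 to 0.212 without Model 4. Leaving out Model 2 gave a log2 fold change of 0.41 and an edgeR adjusted p of 0.208 for Cplx2. Cplx1 was at 699 ± 44.1 CPM (Model) and 690.3 ± 51.5 CPM (IsoL), with a log2 fold change of -0.018 (SE 0.061, 95% interval -0.15 to 0.11).

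Complexin 2 is the main complexin of cortical and hippocampal excitatory neurons, and markers of those regions were unequal among the IsoL libraries. The 10 cortical and hippocampal markers summed to 291, 261, 149 and 131 CPM in IsoL 1 to 4 and 124 to 153 CPM in the Model libraries. The choroid plexus markers, among them Ttr, summed to 700.4, 605, 70.9 and 17.7 CPM in IsoL 1 to 4 and 18.2 to 25.4 CPM in Model. IsoL 1 was the highest library for both lists and for Cplx2, while IsoL 4 held Cplx2 at about the level of IsoL 2 with both lists within or near the Model range. The part of these lists in the value of Cplx2 was not tested.

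**Figure D3:**
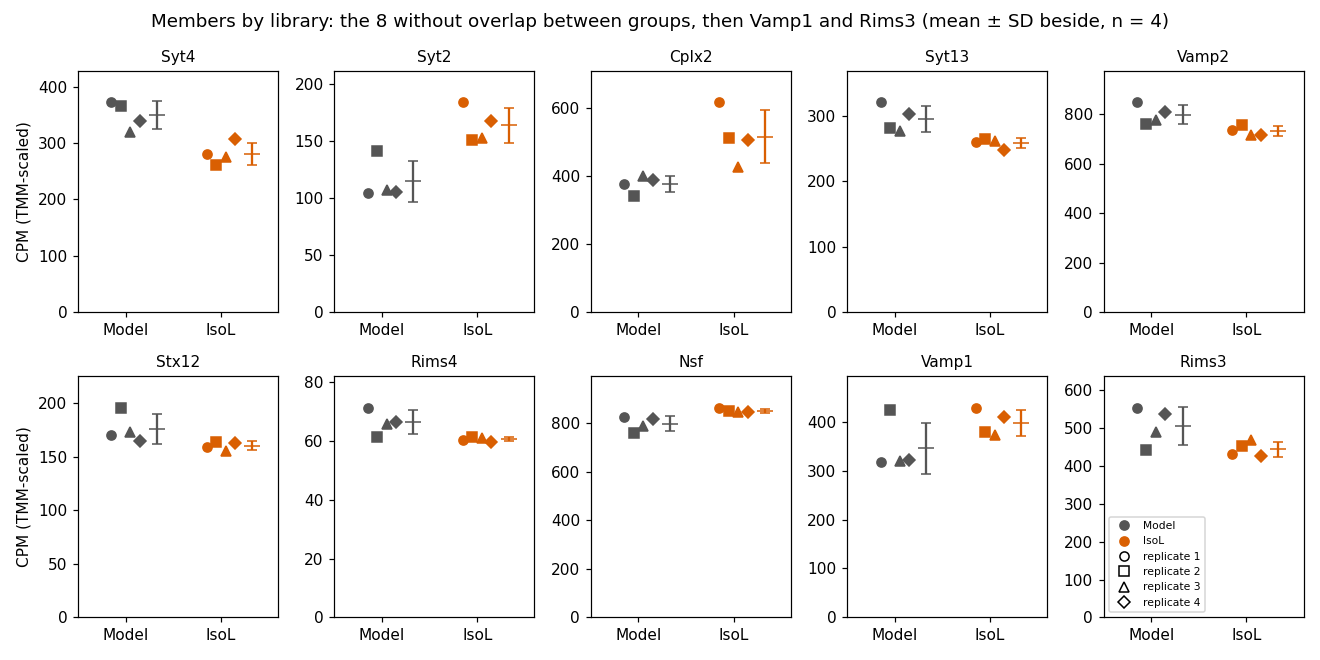
CPM per library for the 8 members whose groups do not overlap, then Vamp1 and Rims3, with the group mean and SD drawn beside the points (n = 4 per group). Model 2 lies with the IsoL libraries for Vamp1 and Rims3 and nearest to them for Syt2, while Syt4 and Cplx2 separate in all libraries.

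The windows just upstream of the transcription start are shown for the 3 members whose IsoL libraries all lay above Model, Syt2, Cplx2 and Nsf. They come from the RefSeq promoter table on GRCm38.p6, which holds 57 of the 75 members, and run over the 250 bases before each listed start, 5′ to 3′ on the gene's strand. Capitals mark matches on either strand to 5 short motifs: the Sp1 box GGGCGG, the AP-1 site TGANTCA, the cAMP response element TGACGTCA, the Egr site GCGNGGGCG and the E-box CACGTG. Syt2 has 2 listed starts, at chr1:134646362-134646611, plus strand and chr1:134709050-134709299, plus strand. The build of the deposited gene coordinates is not stated in any source at hand and is not GRCm38, so the windows and the gene positions given with each member cannot be set side by side. The window of Cplx2 is chr13:54302306-54302555, plus strand, and that of Nsf is chr11:103954057-103954306, minus strand. For Nsf and the second Syt2 start, a GENCODE transcript of the gene holds the bases just after the listed start. For Cplx2 and the first Syt2 start, no GENCODE transcript of the gene does, so these windows may not lie before a start in use.
Syt2 first start: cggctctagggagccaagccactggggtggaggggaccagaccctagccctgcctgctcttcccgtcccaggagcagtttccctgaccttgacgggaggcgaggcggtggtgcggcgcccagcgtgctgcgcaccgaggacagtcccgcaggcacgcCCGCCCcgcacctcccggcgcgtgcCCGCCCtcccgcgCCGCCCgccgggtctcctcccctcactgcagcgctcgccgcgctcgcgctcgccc
Syt2 second start: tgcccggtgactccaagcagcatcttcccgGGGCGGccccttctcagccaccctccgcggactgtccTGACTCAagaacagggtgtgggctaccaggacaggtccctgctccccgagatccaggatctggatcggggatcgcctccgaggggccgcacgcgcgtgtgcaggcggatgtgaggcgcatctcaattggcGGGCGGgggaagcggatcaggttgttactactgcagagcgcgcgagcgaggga
Cplx2: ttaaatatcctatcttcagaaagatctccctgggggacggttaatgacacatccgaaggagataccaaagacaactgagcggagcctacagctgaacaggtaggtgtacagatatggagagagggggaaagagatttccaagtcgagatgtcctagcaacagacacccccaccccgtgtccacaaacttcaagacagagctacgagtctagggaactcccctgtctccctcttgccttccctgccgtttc
Nsf: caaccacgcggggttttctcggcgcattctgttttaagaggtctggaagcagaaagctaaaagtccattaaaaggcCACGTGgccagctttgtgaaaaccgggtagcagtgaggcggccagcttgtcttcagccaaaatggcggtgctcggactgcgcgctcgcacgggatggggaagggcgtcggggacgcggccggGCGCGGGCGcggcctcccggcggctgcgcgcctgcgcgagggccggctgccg

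The first Syt2 window held 3 Sp1 boxes, all on the opposite strand, and the second held 2 Sp1 boxes and 1 AP-1 site at -183 to -177 from the start. The Nsf window held an E-box at -174 to -169 and an Egr site at -52 to -44, and none of the 5 motifs was in the Cplx2 window. No motif was in all 3 genes. Stx12, whose IsoL libraries all lay below Model, also has a listed window, which held 3 Sp1 boxes and is not shown. Windows on chromosome 18, where Syt4 lies, were not considered for display. Among the 57 members with an entry, 39 (68.4%) had an Sp1 box in at least 1 window, against 35.4% of all genes in the table. For the E-box it was 9 members (15.8%) against 6.86%, for the Egr site 7 (12.3%) against 5.33%, for the AP-1 site 3 (5.26%) against 7.82% and for the cAMP response element 2 (3.51%) against 1.77%. The Egr site overlapped an Sp1 box in 4 of its 7 members, and a match to a motif is a description of these letters only.

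Of the core SNAREs of the neuron, Vamp2, Snap25 and Stx1a had smaller estimates than Vamp1. Vamp2 (ENSMUSG00000020894, chromosome 11, 68979316 to 68983210), the main vesicle SNARE of the forebrain, was at 849, 761, 779 and 809 CPM in Model 1 to 4 and 737, 758, 718 and 718 CPM in IsoL 1 to 4. The highest IsoL library lay just below the lowest Model library, Model 2, and the log2 fold change was -0.13 (SE 0.047) with an edgeR adjusted p of 0.272. Snap25, the plasma-membrane SNARE, was at 1845, 2169.9, 1570.0 and 1699 CPM in Model 1 to 4 and 1914, 1837, 1694 and 1778 CPM in IsoL 1 to 4. Model 2 was the highest of the 8, and the log2 fold change of -0.012 turned to 0.084 without it. For Snap25 the edgeR adjusted p was 0.967 with all libraries.

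Stx1a, a plasma-membrane syntaxin of the neuron, was at 52.1, 42.5, 43.8 and 46.2 CPM in Model 1 to 4 and 36.6, 44.2, 45.7 and 44.6 CPM in IsoL 1 to 4. The groups overlapped, and IsoL 1 was the lowest library. Its log2 fold change was -0.11 (SE 0.082) with an edgeR adjusted p of 0.605.

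The syntaxin-binding proteins described here had positive estimates, and none had an unadjusted p under 0.05 in edgeR. Stxbp2 and Stxbp3, Munc18 proteins that also act outside neurons, had log2 fold changes of 0.091 (95% interval -0.17 to 0.35) and 0.093 (95% interval -0.04 to 0.23). The tomosyn genes Stxbp5 and Stxbp5l, whose products inhibit SNARE assembly, had log2 fold changes of 0.07 and 0.26, and Stxbp4 and Stxbp6 had 0.12 and 0.027. Of all tested genes, 49.5% had a positive value. The 95% interval of Stxbp5l was wide, -0.15 to 0.67, and without Model 2 its value was 0.091. The values for Stxbp2 and Stxbp6 without that library were -0.016 and -0.0019, so the common direction did not hold.

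Nsf (ENSMUSG00000034187, chromosome 11, 103712608 to 103844882), the ATPase that recycles SNAREs, was at 826, 757, 789 and 815 CPM in Model 1 to 4 and 864, 848, 845 and 846 CPM in IsoL 1 to 4. The IsoL libraries lay above the Model libraries without overlap, and the gap between the groups was small. For Nsf the log2 fold change was 0.095 (SE 0.043) with an edgeR adjusted p of 0.367.

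Priming and active-zone members split evenly, with 4 of 8 above and 4 below Model. Rims3, a short RIM isoform gene, was at 555, 442, 489 and 537 CPM in Model 1 to 4 and 432, 453, 468 and 426 CPM in IsoL 1 to 4. Model 2 lay among the IsoL libraries, and the other 3 Model libraries lay above all of them. The log2 fold change was -0.18 with an edgeR adjusted p of 0.255, and without Model 2 it was -0.24 with an edgeR adjusted p of 0.0237. Rims4, the other short RIM gene, was at 71.3, 61.4, 65.8 and 66.5 CPM in Model 1 to 4 and 60.2, 61.3, 60.9 and 59.7 CPM in IsoL 1 to 4. Its groups did not overlap, with Model 2 just above the highest IsoL library, at a log2 fold change of -0.13 and an edgeR adjusted p of 0.320. The long scaffolds Rims1 and Rims2 had log2 fold changes of -0.043 and -0.056. The priming factors Unc13a, Unc13b and Unc13c had 0.10, 0.089 and 0.059, with Unc13a at 212 ± 23.6 CPM (Model) and 227 ± 7.28 CPM (IsoL). Without Model 2 these 3 log2 fold changes were 0.032, 0.059 and 0.0045.

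Vesicle proteins hold, tether and target the vesicle. Their 10 members had log2 fold changes with a median of -0.036, 4 above and 6 below Model, and none had an unadjusted p under 0.05 in edgeR. Synaptophysin, Syp, the common marker of synaptic vesicles, was at 476 ± 35.2 CPM (Model) and 466 ± 9.32 CPM (IsoL), a log2 fold change of -0.028 with a 95% interval of -0.14 to 0.086. Syn1 was at 365 ± 29.8 CPM (Model) and 371 ± 13.6 CPM (IsoL) and Syn2 at 398 ± 27.7 CPM (Model) and 375 ± 5.21 CPM (IsoL), the genes for the synapsins that tether vesicles in the reserve pool. Sv2a, the vesicle glycoprotein bound by levetiracetam, was at 780.0 ± 18.4 CPM (Model) and 756 ± 27.3 CPM (IsoL), and Sv2b and Sv2c had log2 fold changes of 0.0043 and 0.088. Rab3a, the vesicle GTPase that binds Rims proteins, was at 376 ± 13.6 CPM (Model) and 357 ± 14.5 CPM (IsoL). The largest estimate was that of Rab3b, at 30.2 ± 4.91 CPM (Model) and 25.7 ± 3.14 CPM (IsoL), a log2 fold change of -0.23 (95% interval -0.50 to 0.04).

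SNAREs of other membranes serve the Golgi, endosomes and constitutive exocytosis. Of 17 tested, 3 lay above and 14 below Model, with a median log2 fold change of -0.066, where 50.5% of all tested genes lay below. This split turned partly on Model 2. Without that library the log2 fold changes of Stx3, Stx4a, Stx6 and Stx16 became positive, at 0.016, 0.060, 0.025 and 0.0094. Stx12, an endosomal syntaxin, was at 170.3, 196, 173 and 165 CPM in Model 1 to 4 and 159.5, 164, 155 and 163 CPM in IsoL 1 to 4. Its groups did not overlap, at a log2 fold change of -0.13 and an edgeR adjusted p of 0.313, and without Model 2 it was -0.077. Stx6, Stx16 and Vamp4 of the trans-Golgi network and endosomes and Stx17 of autophagosomes had log2 fold changes of -0.016, -0.019, -0.021 and -0.0039. Snap23 and Snap29, the ubiquitous relatives of Snap25, had -0.10 and -0.11.

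Ratios between paralogues within a library remove any scaling that both genes share. Of 11 pairs set against each other as log2 FPKM ratios, 2 did not overlap between groups. The ratio of Syt2 to Syt1 was -3.60, -2.95, -3.49 and -3.48 in Model 1 to 4 and -2.61, -2.93, -2.79 and -2.58 in IsoL 1 to 4. The higher end of Model, Model 2, nearly touched IsoL 2. The share of Syt2 in the summed FPKM of Syt1, Syt2 and Syt9, the sensors of synchronous release, was 7.89 ± 1.61% in Model and 11.7 ± 1.12% in IsoL.

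The ratio of Cplx1 to Cplx2 was 1.95, 2.31, 1.99 and 2.01 in Model 1 to 4 and 1.46, 1.65, 1.81 and 1.5 in IsoL 1 to 4. It was lower in every IsoL library, and Cplx2 made up 19.3 ± 1.70% of complexin FPKM in Model and 24.8 ± 2.0% in IsoL. For Vamp1 to Vamp2 the ratio was -2.84, -2.26, -2.70 and -2.75 in Model 1 to 4 and -2.20, -2.42, -2.36 and -2.23 in IsoL 1 to 4. Only Model 2 overlapped the IsoL libraries there. The group differences of the 9 overlapping pairs ran from -0.093 to 0.34, and Unc13a and Unc13c held near-equal shares of Unc13 FPKM in both groups, at 48.2 ± 1.89% and 46.4 ± 1.95% in Model and 49.0 ± 2.30% and 45.5 ± 1.88% in IsoL. These ratios are descriptions with no test.

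**Figure D4:**
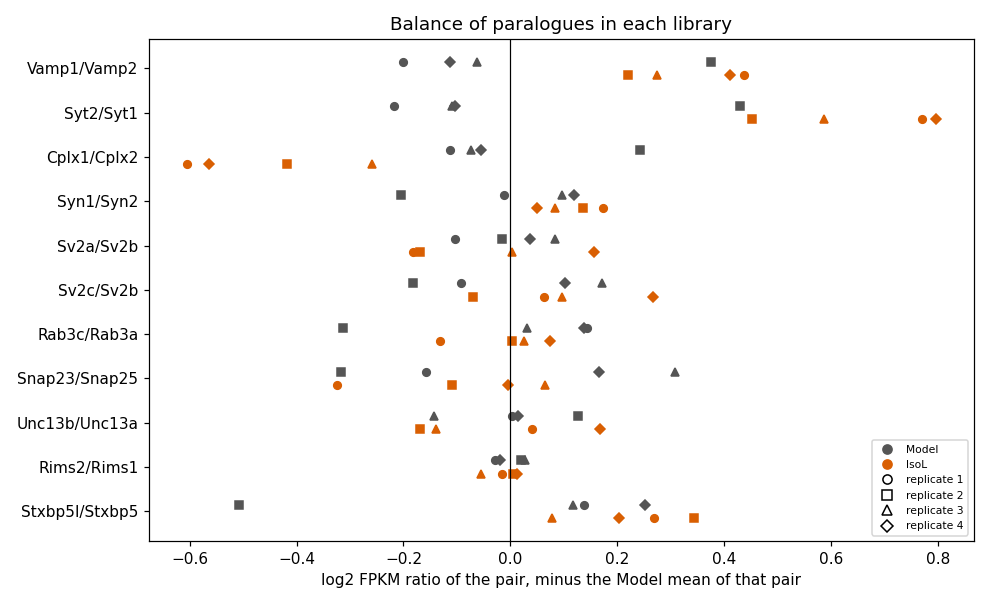
Log2 FPKM ratio of 11 paralogue pairs in each library; values are the difference from the Model mean of that pair. Syt2/Syt1 lies above 0 and Cplx1/Cplx2 below 0 in all 4 IsoL libraries, and Model 2 departs from the other Model libraries for several pairs.

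Other genes of the release pathway were read from lists around the members, and no gene in any of them passed the edgeR threshold in either direction. Of 17 active-zone and priming genes, 12 lay above and 5 below Model, with a median log2 fold change of 0.014 and 1 unadjusted p under 0.05, that of Lin7b. Of 9 genes of SNARE disassembly and chaperoning, 3 lay above and 6 below. Napb (β-SNAP), a cofactor of Nsf, was at 518 ± 16.2 CPM (Model) and 565 ± 7.03 CPM (IsoL), a log2 fold change of 0.12 with an edgeR adjusted p of 0.225. The other SNAP cofactors, Napa and Napg, had log2 fold changes of -0.016 and -0.016, and Sgta, a chaperone partner of vesicle proteins, had -0.12, with its IsoL libraries below all Model libraries. Of 25 endocytosis genes 14 lay above and 11 below, with a median of 0.015, and of 9 genes of the Rab3 cycle 6 lay above and 3 below.

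Vesicle membrane and transmitter-loading genes numbered 20. Of these, 7 lay above and 13 below Model, where 50.5% of all tested genes lay below. Those above included the transporters Slc17a7, Slc18a3 and Slc17a8, with log2 fold changes of 0.65, 0.54 and 0.42. Their groups overlapped, and none had an unadjusted p under 0.05 in edgeR. Of the 20, 6 (all lower) had an unadjusted p under 0.05, as did 6.78% of all tested genes on the lower side, and the difference between these shares was not tested. The lowest p was that of Slc18a2, the vesicular monoamine transporter, at 126 ± 6.45 CPM (Model) and 99.4 ± 10.8 CPM (IsoL), a log2 fold change of -0.34 with an edgeR adjusted p of 0.0687. The others were Slc17a6, the glutamate transporter of subcortical neurons, at 576 ± 39.3 CPM (Model) and 513 ± 18.3 CPM (IsoL), Slc32a1, the GABA transporter, at 82.0 ± 3.79 CPM (Model) and 75.4 ± 2.53 CPM (IsoL), and the vesicle membrane proteins Scamp5, Syngr1 and Syngr3, with log2 fold changes of -0.18, -0.12 and -0.23.

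**Figure D5:**
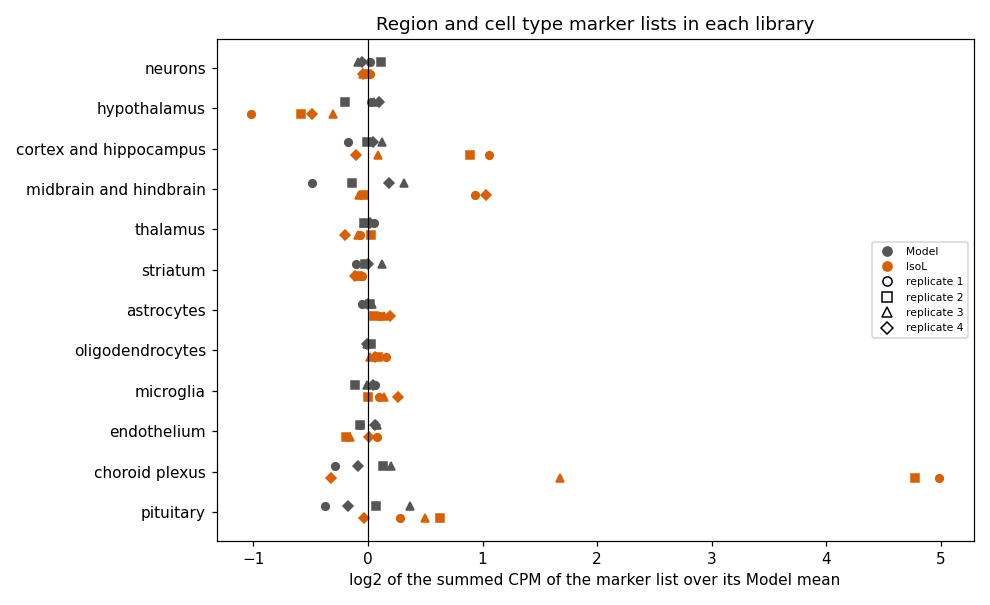
Summed CPM of each marker list in each library, as log2 of its ratio to the Model mean. The hypothalamic list is below the Model mean in all 4 IsoL libraries, and the choroid plexus list stands far above it in IsoL 1, 2 and 3.

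Astrocyte markers summed to 1514 to 1606 CPM in Model and 1628 to 1788 CPM in IsoL, without overlap, and oligodendrocyte markers to 13721 to 14098 and 13960.1 to 15418 CPM. Microglial markers summed to 165 to 186 CPM in Model and 178 to 214 CPM in IsoL. All 6 astrocyte, all 6 oligodendrocyte and all 6 microglial markers lay above Model, and none was called by edgeR. Thalamic markers summed to 1668 to 1775 CPM in Model and 1485 to 1747 CPM in IsoL, and the pituitary hormone genes Gh and Prl were at 0. The part of these lists in the members' values was not tested.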

How the data were processed

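Polyadenylated RNA of 8 libraries, 4 Model and 4 IsoL as the labels group them, was sequenced. Per the submitters' processing notes, reads were handled with fastp 0.22.0, HISAT2 2.1.0 and HTSeq 0.9.1, with no genome build named in the sources at hand. The authors deposited a read count per gene and library, an FPKM per gene and library and each gene's length in 1 table. The deposited FPKM equal the count divided by the deposited length and by the library's total count, with a largest relative difference of 1.11e-09 over genes with 200 counts or more. Strand setting, and whether animals were pooled, are not stated.

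Counts were tested with edgeR 4.0.16 (TMM scaling, filterByExpr, robust quasi-likelihood fit) in R 4.3.3, IsoL against Model without covariates, with Benjamini-Hochberg adjustment over all 14536 genes tested and a threshold of 0.05. CPM are counts divided by TMM-scaled library sizes. Alternatives were DESeq2 1.42.0, limma 3.58.1 voom with quality weights, DESeq2 size factors, other filters, a threshold of 0.1, a replicate block, and each library left out in turn. The procedure was tested on simulated data. Figures were drawn with matplotlib 3.10.9. Pathway and marker lists were written out gene by gene. The members, lists and tests were chosen with earlier results of these data known. Named with values are the 12 members with the smallest p, those without overlap between groups (8), a core set (21) and members below the filter, and all further members named were picked once their values had been seen.

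Replicate numbers were checked for pairing by correlating the libraries' deviations from their group means. Libraries of the same number correlated at 0.020 to 0.070, and those of different numbers at -0.139 to 0.143. With 0 of 4 same-number pairs past 0.1, no pairing was seen, but so few libraries cannot exclude one. No column lacked a sample. A few members are counted in the totals and are not reported here by name.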

Additional observations from a re-analysis of the deposited data

Results flagged for a closer look

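Of 82 group and value combinations checked for a library far from the other 3 of its group, 6 stood out, and 4 of the 6 came from Model 2. The measure is the gap to the nearest library divided by the range of the group, and chance alone is expected to exceed its limit in about 5% of such checks. For Vamp1 in Model it was 0.962, with Model 2 at 424 CPM and the others at 317 to 321. For Syt2 in Model it was 0.939, with Model 2 at 142 CPM and the others at 105 to 107. For Syt7 in Model it was 0.869, with Model 2 at 335 CPM and the others at 369 to 374. For the Cplx1/Cplx2 log2 FPKM ratio in Model it was 0.838, with Model 2 at 2.31 and the others at 1.95 to 2.01. In IsoL, Nsf gave 0.855, with IsoL 1 at 864 CPM and the others at 845 to 848, and Stx1a gave 0.842, with IsoL 1 at 36.6 CPM and the others at 44.2 to 45.7.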

How the results depend on the processing

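With all 8 libraries, edgeR called 40 genes and none of the 70 members, and DESeq2 size factors or a minimum mean of 1 CPM gave the same count of members. Over all genes the count was 74 without a filter on low counts, 311 with DESeq2, 175 with limma voom and 138 at a threshold of 0.1. Members called higher numbered 2 with DESeq2, 1 with limma voom and 2 at a threshold of 0.1, and members called lower numbered 2, 2 and 1. Without a filter, 1 member was called lower, Syt4, with an edgeR adjusted p of 0.0270. Leaving out 1 library at a time gave 6 to 146 genes, 0 to 2 members higher and 0 to 2 lower. The fewest genes were called without Model 4 or IsoL 2, and the most without Model 2, where edgeR called 146 genes (0.998% of those tested) and 4 members, Syt2, Vamp1, Rims3 and Syt13. Without Model 3 it called Syt4, and without IsoL 3 Cplx2. The cause was not tested.

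With the replicate number as a block, edgeR called 17 genes and 0 members. Since no pairing of the numbers was seen, this result stands here only. The median log2 fold change of the members ran from -0.038 to -0.0084 over the alternatives. Of the values for single named members, 377 kept direction and side of the threshold, 14 newly passed it, and 15 changed sign, all in members whose estimates were near 0 and that no setting called. With limma voom these were Snap25 at 0.059, Syt7 at -8.1e-05 and Syn1 at -0.021. With 1 library left out the log2 fold change ran from -0.071 to 0.084 for Snap25, -0.0018 to 0.076 for Syt7, -0.060 to 0.020 for Cplx1, -0.027 to 0.058 for Syn1, -0.036 to 0.059 for Sv2b and -0.074 to 0.0025 for Syp. Depth limits the 5 untested members and gives wide intervals for low ones such as Cplx3 and Unc13d.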
